A study of Mus musculus with 6 samples.

Results

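Immediate early genes were read across isolated mouse pancreatic islets. The set holds 10 genes chosen by name, Fos, Fosb, Jun, Junb, Egr1, Atf3, Ier2, Nr4a1, Dusp1 and Btg2, out of 34745 genes in the deposited table, and all 10 were found there. Poly-A RNA was sequenced in 6 libraries from islets of C57BL/6 mice aged 8 weeks, 2 libraries in each of 3 groups. The control group is labelled WT. The KO group is labelled Beta RapKO, or βRapKO in the study's design, a name used for deletion in beta cells of Rptor, the gene of the mTORC1 subunit Raptor, which the labels do not spell out. The KO+DNMT3A group is labelled Beta RapKO with Dnmt3a expression, given by lentivirus according to the design text. Sample descriptions of both WT and both KO libraries also carry the word GFP, which is not explained. The Cre line, the time from isolation to lysis, any culture of the islets and the number of mice behind a library are not given in the sources used here, so p-values measure the spread between libraries, which may be technical.

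Immediate early genes are transcribed within minutes of a growth factor, depolarization or stress signal, without new protein synthesis, through kinases that act on factors already bound to their promoters. Many encode transcription factors that then drive a later wave of genes, and others encode proteins that shut the signal off. Their transcripts are short-lived. In islets they respond to glucose and calcium entry in beta cells, and they are also known to be induced when tissue is dissociated into islets or cells.

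Values are the authors' FPKM, fragments per kilobase of transcript, scaled to the size of the library. Genes with 1 annotated transcript have values that are mostly whole multiples of a fragment, and from these multiples the libraries hold about 244770 (WT replicate 1) to 1919500 fragments (KO+DNMT3A replicate 1). WT replicate 1 and KO replicate 2 stood apart. Ins1 and Ins2 took 0.17% and 0.11% of the summed FPKM there and 16.47% to 30.49% in the other 4 libraries, and mitochondrially encoded genes took 44.8% and 50.9% against 16.5% to 26.5%. Transcripts associated with ribosomal RNA took 15.3% and 8.1% there, against 2.2% to 4.1% in the other 4. Both libraries are called insulin-poor below: their 10 beta cell markers summed to 1583 and 1684 FPKM (2 and 1 listed at 0) against 124621 to 218236 FPKM elsewhere, while the alpha cell hormone gene Gcg was 1197 to 2454 FPKM in all 6. Other hormone genes were low in WT replicate 1. Sst was 443 FPKM there against 2560 to 10846 FPKM elsewhere, and Ppy 1178 FPKM against 6511 to 18361 FPKM. In KO replicate 2 Sst was 2736 and Ppy 8399 FPKM. Rptor levels were 0.80 and 1.06 (libraries labelled WT), 0.38 and 1.51 (labelled KO) and 0.71 and 1.93 FPKM (labelled KO+DNMT3A), and Dnmt3a levels were 2.94 and 4.43, 3.19 and 2.50, and 3.62 and 3.80 FPKM in that order. Rptor overlapped between all groups, and Dnmt3a was higher in both KO+DNMT3A libraries than in both KO libraries but lay inside the WT range.

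The 10 genes spanned a wide range of levels, and their order was similar in most libraries. Junb, Jun, Ier2 and Btg2 held the 4 highest levels in 5 of the 6 libraries, KO replicate 2 being the exception. Fos, Nr4a1, Egr1, Dusp1 and Atf3 lay below them, between 0 and 17.6 FPKM. Fosb was at or near the bottom of the order, and only WT replicate 1 held it above 1 FPKM. Within each of these tiers neighbouring genes changed places from library to library, so the order inside a tier does not exceed the spread.

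**Figure D1:**
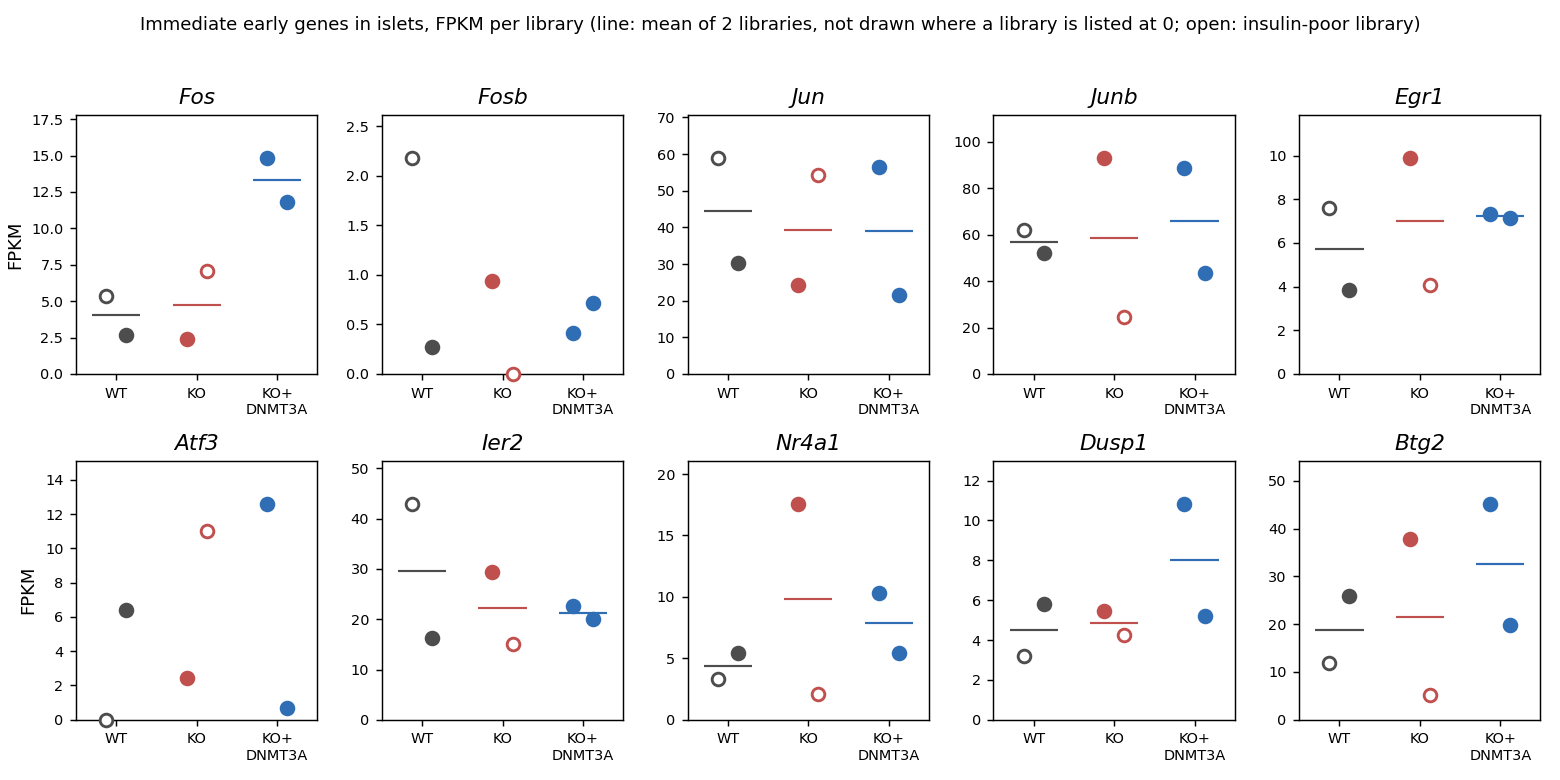
FPKM of each gene (vertical axis, starting at 0, scaled per gene) in the 3 groups (horizontal axis). Each point is a library, and open points are the insulin-poor libraries. Lines are means of 2 libraries and are not drawn for Fosb and Atf3, which have a library listed at 0. Both KO+DNMT3A points of Fos, at 14.8 and 11.8 FPKM, lie above its other 4 points, whereas the WT and KO points overlap for all 10 genes.

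Few fragments stand behind these values. Jun, Ier2 and Btg2 have a single annotated transcript, and their FPKM convert to whole fragments to within 0.16 of a fragment: 46 to 346 for Jun, 16 to 66 for Ier2 and 8 to 238 for Btg2. If the longest coding transcript is taken for the other 7 genes, the median of all 10 genes is 5.4 fragments in WT replicate 1, 13.0 in KO replicate 2 and 61.6 in KO+DNMT3A replicate 1. Intervals given below cover counting error only.

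Fos encodes a protein that pairs with Jun proteins to form the transcription factor AP-1. It was 5.39 and 2.71 for the WT libraries, 2.40 and 7.10 for the KO libraries, and 14.8 and 11.8 FPKM for the KO+DNMT3A libraries. If the longest coding transcript is taken, these values rest on 2.8 and 5.6 fragments for WT and 7.2 and 11.7 for KO. Each KO+DNMT3A library holds 27.8 fragments or more by the same rule. No counting interval was computed for Fos, so whether its libraries differ beyond counting error was not tested. Both KO+DNMT3A libraries lie above the other 4 libraries, and WT and KO overlap. Of the 10 genes Fos alone had this order, which was found in 7.6% of the 13233 genes tested; 17.2% of them lay higher without overlap in KO+DNMT3A than in KO, and 19.2% than in WT. On the log2(FPKM + 1) scale, Fos in KO+DNMT3A differed from KO by 1.44 (SE 0.62; 95% interval -0.002 to 2.88) and from WT by 1.55 (SE 0.62; 0.11 to 2.99). The limma p was 0.0502 and 0.0383 before adjustment over all genes, and 1 and 0.997 after it, so neither difference passed. KO differed from WT by 0.11 (SE 0.62). The 2 comparisons with KO+DNMT3A share its libraries and are not independent of each other.

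Without both insulin-poor libraries the Fos difference was as large: the log2 fold change was 2.06 against the remaining KO library and 1.94 against the remaining WT library (limma adjusted p = 1 for each), in a fit where only the KO+DNMT3A pair gives the spread. In 17 of 17 alternative fits Fos was higher in KO+DNMT3A than in KO, by 0.81 (without KO replicate 1) to 2.06 on the log2 scale. It was also higher than in WT in 17 of 17, by 1.16 (without WT replicate 2) to 1.94. Because both KO+DNMT3A values lie above the other 4, only the 3 scalings could have reversed these signs. Those gave 1.23 to 1.5 against KO and 1.35 to 1.6 against WT. Within a library, where scaling cancels, the ratio of Fos to Jun was 0.26 and 0.55 in KO+DNMT3A and 0.09 to 0.13 in the other 4 libraries. KO+DNMT3A replicate 2, with the ratio of 0.55, also held the lowest Jun of the series, 21.6 FPKM. The order did not hold with Btg2 in place of Jun. Fos lay above Btg2 in KO replicate 2 (7.10 against 5.14 FPKM) but below it in KO+DNMT3A (14.8 against 45.2 and 11.8 against 19.9 FPKM). The median over all genes was itself 0.189 higher in KO+DNMT3A than in KO and 0.228 higher than in WT, and after each library was centred on its median the Fos values were 1.24 and 1.35. Macrophage markers were lowest in this group: the 10 markers, none of them listed at 0, summed to 272 and 161 for the KO+DNMT3A libraries, 518 and 326 for the KO libraries, and 617 and 513 FPKM for the WT libraries, and their part in the Fos value was not tested. In bulk islets, fewer cells of a type and less RNA per cell cannot be told apart.

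Fosb, a close relative of Fos, was 2.18 and 0.27 for the WT libraries, 0.94 and 0 for the KO libraries, and 0.42 and 0.72 FPKM for the KO+DNMT3A libraries. Only 1 library reached 1 FPKM, so Fosb was not tested with the others, and the values rest on up to 5 fragments if the longest transcript is taken. Its high library, WT replicate 1, is also the shallowest, where a lone fragment from 2 kb of transcript counts for 2.04 FPKM.

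Jun, the usual partner of Fos in AP-1, was 58.9 and 30.3 for the WT libraries, 24.2 and 54.2 for the KO libraries, and 56.5 and 21.6 FPKM for the KO+DNMT3A libraries. Each group holds a library between 54.2 and 58.9 and a library between 21.6 and 30.3 FPKM, and the groups overlap fully. With counting intervals of 45.5 to 64.2 FPKM in KO replicate 2 and 19.9 to 29.2 FPKM in KO replicate 1, the distance between the KO libraries exceeds counting error. The log2 fold changes of the 3 comparisons lay between -0.26 and -0.05 (SE 0.73). The 3 libraries with high Jun are both insulin-poor libraries and KO+DNMT3A replicate 1. Jun shares 232 bp with the antisense gene Junos, which was listed at 0 in all libraries except KO replicate 1.

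Junb, a Jun relative with weaker activating capacity, followed another order. It was 62.2 and 51.9 for the WT libraries, 93.0 and 24.4 for the KO libraries, and 88.6 and 43.3 FPKM for the KO+DNMT3A libraries. KO replicate 2 held the lowest Junb of the series together with one of the higher Jun values, so the ratio of Jun to Junb within a library was 2.23 there, 0.26 in KO replicate 1 and 0.50 to 0.95 in the other 4. The log2 fold changes were -0.24 for KO against WT, 0.37 for KO+DNMT3A against KO and 0.12 for KO+DNMT3A against WT (SE 0.77). Junb shares 173 bp of exon with Prdx2 on the opposite strand, and whether counting used strand is not given in the sources used here, so reads of the pair cannot be told apart; Prdx2 was 10.7 to 21.6 FPKM.

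Upstream sequences are shown for the AP-1 genes Fos, Jun and Junb, and any link of sequence to the library orders was not tested. They are RefSeq sequences on GRCm38.p6, the 250 bases before each annotated start, 5′ to 3′ on the gene's strand, from chr12:85473640-85473889, plus strand (Fos), chr4:95052223-95052472, minus strand (Jun), and chr8:84978749-84978998, minus strand (Junb). Capitals mark matches, on either strand, to the cyclic AMP response element (CRE) TGACGTCA, its core TGACG, the AP-1 or ATF pattern TGANNTCA, or TATAAA.
Fos: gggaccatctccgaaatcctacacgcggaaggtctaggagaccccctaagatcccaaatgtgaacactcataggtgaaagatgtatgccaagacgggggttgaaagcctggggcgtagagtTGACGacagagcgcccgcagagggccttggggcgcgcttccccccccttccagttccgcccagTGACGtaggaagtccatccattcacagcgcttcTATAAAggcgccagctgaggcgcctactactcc
Jun: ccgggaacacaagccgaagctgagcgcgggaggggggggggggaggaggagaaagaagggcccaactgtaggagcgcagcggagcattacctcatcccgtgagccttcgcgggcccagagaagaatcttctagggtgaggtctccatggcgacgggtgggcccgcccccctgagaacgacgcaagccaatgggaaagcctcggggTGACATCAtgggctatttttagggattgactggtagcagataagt
Junb: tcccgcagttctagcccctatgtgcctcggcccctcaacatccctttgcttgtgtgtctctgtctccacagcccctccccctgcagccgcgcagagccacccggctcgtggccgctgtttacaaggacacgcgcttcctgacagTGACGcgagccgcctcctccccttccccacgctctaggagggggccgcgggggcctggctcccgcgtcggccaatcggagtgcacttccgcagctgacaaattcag
The Fos window holds 2 CRE cores, 129 and 66 bases before the start, and a TATAAA 33 bases before it. In the Jun window no CRE core was matched, and its capitals are the AP-1 or ATF pattern 45 bases before the start, while Junb holds 1 CRE core, 106 bases before it. These are matches of letters, not measured binding.

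Atf3 encodes a stress-induced bZIP factor that can pair with Jun proteins. It was listed at 0 for WT replicate 1, and its other values were 6.41 for WT replicate 2, 2.46 and 10.998 for the KO libraries, and 12.6 and 0.70 FPKM for the KO+DNMT3A libraries. Within each group the libraries differ by more than the groups do, and Atf3 had the widest standard error of the 9 genes tested, at 1.25. KO differed from WT by 1.24 on the log2 scale, and by -0.20 once WT replicate 1, with its listed 0, was left out.

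Egr1, a zinc finger factor induced by MAP kinase signalling, was 7.61 and 3.82 for the WT libraries, 9.89 and 4.09 for the KO libraries, and 7.34 and 7.14 FPKM for the KO+DNMT3A libraries. The KO+DNMT3A libraries lie inside the range of the other groups. Log2 fold changes were 0.15 to 0.36 (SE 0.60).

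Nr4a1 encodes an orphan nuclear receptor that is induced by calcium and cyclic AMP signals. It was 3.30 and 5.396 for the WT libraries, 17.6 and 2.07 for the KO libraries, and 10.3 and 5.425 FPKM for the KO+DNMT3A libraries. KO replicate 1 held the highest and KO replicate 2 the lowest value of the series, a ratio of 8.48 within the group. KO+DNMT3A lay above WT without overlap, but by 5.425 against 5.396 FPKM at the nearest (19.2% of all genes lay higher without overlap), and the log2 fold change was 0.70 (SE 0.86, limma adjusted p = 0.997).

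Ier2, an early gene for a nuclear protein, was 43.0 and 16.2 for the WT libraries, 29.5 and 15.2 for the KO libraries, and 22.6 and 19.99 FPKM for the KO+DNMT3A libraries. WT replicate 1 was highest, with 16 fragments and an interval of 24.6 to 69.8 FPKM, which overlaps that of KO replicate 1, 22.7 to 37.7 FPKM. Log2 fold changes lay between -0.31 and 0.004 (SE 0.67). Duct markers were also highest in WT replicate 1: the 7 markers summed to 2448 FPKM there (Muc1 listed at 0), to 978 FPKM in KO+DNMT3A replicate 1 and to 88.7 to 183 FPKM in the other 4 libraries. Stromal markers, 7 in number with none at 0, summed to 1041 FPKM there and 141 to 333 FPKM elsewhere. The part of either list in the Ier2, Fosb and Jun values was not tested.

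Dusp1 encodes a phosphatase that inactivates MAP kinases and so ends the signal that induces it. It was 3.18 and 5.79 for the WT libraries, 5.46 and 4.24 for the KO libraries, and 10.8 and 5.22 FPKM for the KO+DNMT3A libraries. KO+DNMT3A replicate 1 alone stood above the rest. KO+DNMT3A differed by 0.56 from KO and by 0.69 from WT on the log2 scale (SE 0.57), and neither passed. With 1 library left out these values ranged from 0.10 to 1.03 and from 0.22 to 1.15.

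Btg2 encodes an antiproliferative protein of the BTG/TOB family that is also a p53 target. It was 11.9 and 25.8 for the WT libraries, 37.8 and 5.14 for the KO libraries, and 45.2 and 19.9 FPKM for the KO+DNMT3A libraries. KO replicate 2, with 11 fragments and an interval of 2.57 to 9.20 FPKM, lay far below KO replicate 1, with 148 fragments and an interval of 31.99 to 44.45 FPKM. The spread inside the KO group therefore exceeded the distance between group means of 18.9 ± 9.84, 21.5 ± 23.1 and 32.5 ± 17.9 FPKM for WT, KO and KO+DNMT3A (SD, n = 2). The log2 fold change was -0.27 for KO against WT, 1.01 for KO+DNMT3A against KO and 0.74 for KO+DNMT3A against WT (SE 0.94).

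**Figure D2:**
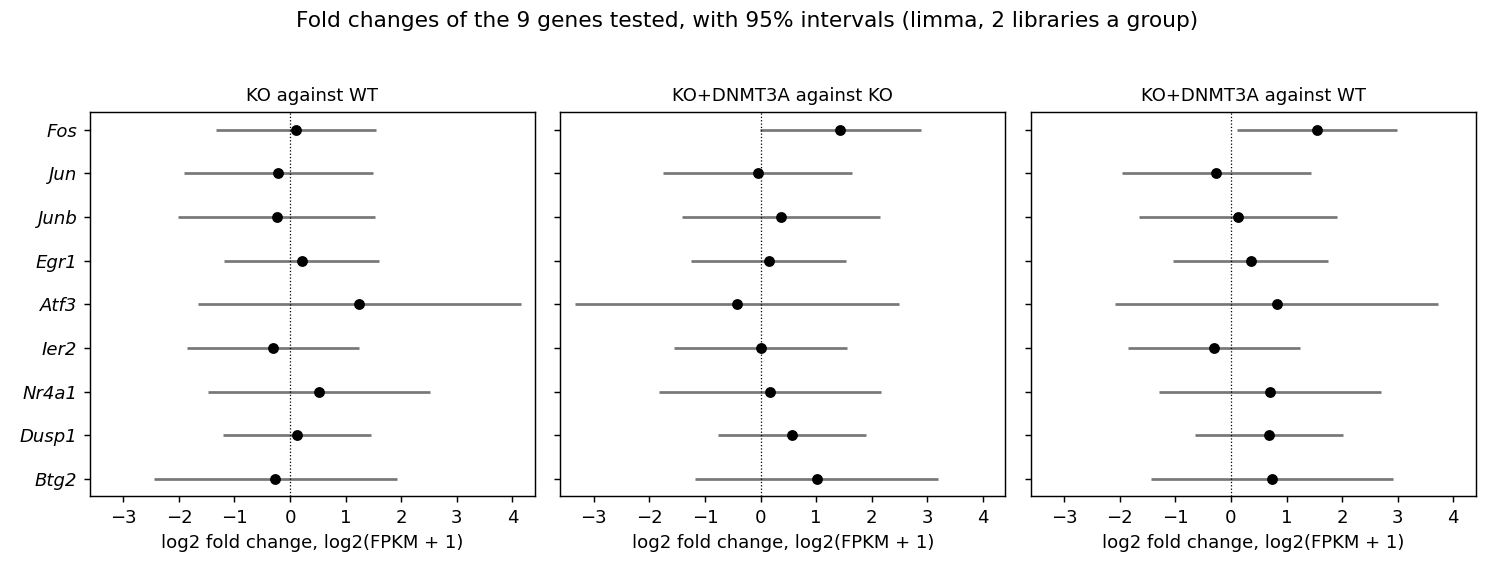
Log2 fold changes on the log2(FPKM + 1) scale (horizontal axis) of the 9 genes tested (vertical axis) in the 3 comparisons; points are limma estimates and lines their 95% intervals. Every interval includes 0 except that of Fos for KO+DNMT3A against WT, 0.11 to 2.99, which did not pass after adjustment.

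No gene of the set passed in any comparison. Of the 9 genes tested, 0 passed at an adjusted p of 0.05 in KO against WT, in KO+DNMT3A against KO and in KO+DNMT3A against WT, where 0% of the 13233 genes did. Before adjustment 0, 0 and 1 of the 9 genes had a limma p under 0.05, beside 1.81%, 1.11% and 2.86% of all genes. The groups did not overlap in the higher direction for 0 of 9 genes in KO against WT (9.36% of all genes), for 1 of 9 in KO+DNMT3A against KO (17.2%) and for 2 of 9, Fos and Nr4a1, in KO+DNMT3A against WT (19.2%). In the lower direction the counts were 0 of 9 each, beside 10.5%, 5.43% and 7.87%. The gene with an unadjusted p under 0.05 was Fos. The counts of genes without overlap in the higher direction are near the background or below it.

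The median log2 fold change of the 9 genes was 0.11 for KO against WT, 0.17 for KO+DNMT3A against KO and 0.69 for KO+DNMT3A against WT, beside medians of 0.03, 0.19 and 0.23 over all genes tested. Without both insulin-poor libraries these medians were 0.53, -0.32 and 0.34, so the middle value took the opposite sign. The last value was 0.17 without KO+DNMT3A replicate 1, and the middle value was 0.71 without KO replicate 1 and 0.88 without KO+DNMT3A replicate 2. Scaling also moved them: the middle value was 0.03 by quantiles and -0.03 by medians, and the last was 0.25 and 0.49. For KO against WT each of the 9 genes took the opposite sign in at least 1 alternative fit.

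Highest and lowest values were counted per library. KO+DNMT3A replicate 1 held the highest value of 4 of the 10 genes, KO replicate 1 of 3 and WT replicate 1 of 3, while KO replicate 2 held the lowest value of 5. Those 5 include Fosb, which was listed at 0 there and not tested. The share over all genes was not computed for these counts. WT replicate 1 and KO replicate 2 were the 2 lowest libraries for 24.9% of all genes tested. The summed level of the 10 genes was 269 FPKM in KO+DNMT3A replicate 1 and 136 FPKM in KO+DNMT3A replicate 2, 223 and 127 FPKM for the KO libraries, and 198 and 149 FPKM for the WT libraries. KO replicate 1 and KO+DNMT3A replicate 1, the highest sums, are also the deepest libraries, at about 1425774 and 1919500 fragments; the part of depth in this order was not tested.

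**Figure D3:**
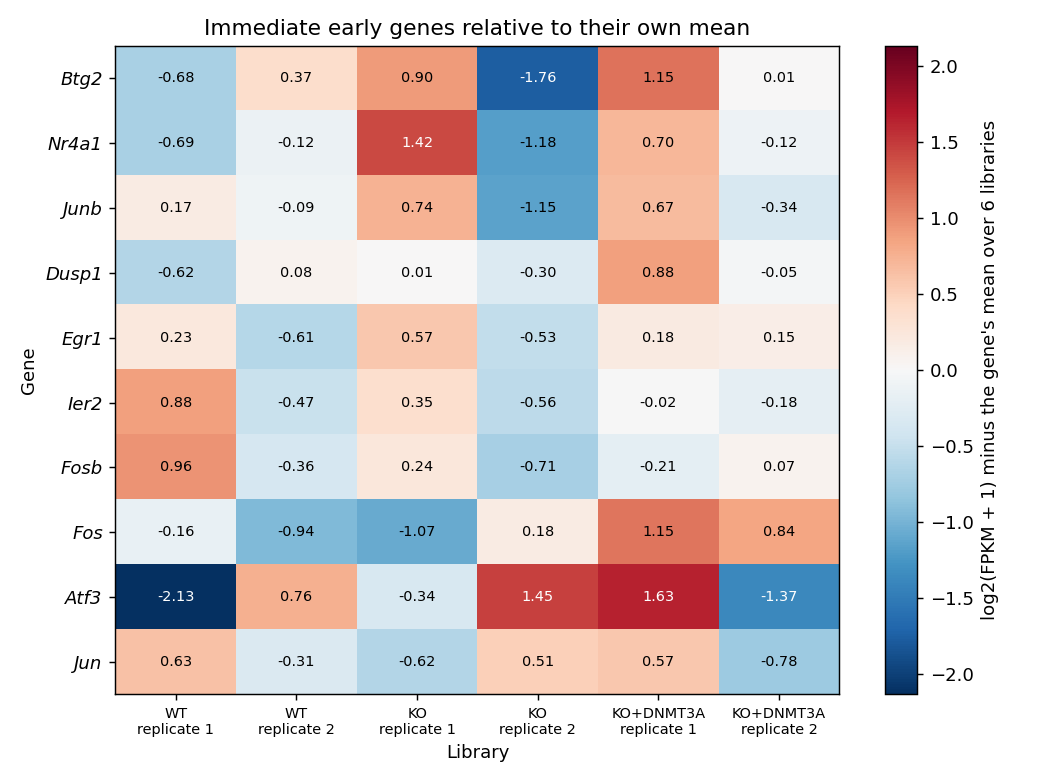
Log2(FPKM + 1) of each gene (rows) in each library (columns) minus the gene's mean over the 6 libraries, printed in each cell and coloured from blue (below) to red (above). Btg2, Nr4a1 and Junb are highest in KO replicate 1 and KO+DNMT3A replicate 1 and lowest in KO replicate 2, whereas Fos is highest in both KO+DNMT3A libraries.

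The genes did not order the libraries as a single block. Btg2, Nr4a1 and Junb had KO replicate 1 and KO+DNMT3A replicate 1 as their 2 highest libraries, an order found in 16.4% of all genes tested, and Pearson correlations between them were 0.85 to 0.91 over the 6 libraries. Btg2, Nr4a1 and Dusp1 had the insulin-poor libraries as their 2 lowest, as did 24.9% of all genes. Fosb and Ier2 were alike (r = 0.95), both being highest in WT replicate 1. Jun and Fos had no member above 0.41, and Atf3 ran opposite to Fosb (r = -0.87). Both r values of Fosb rest on up to 5 fragments in a library if the longest transcript is taken. In WT replicate 1, the shallowest library, Fosb rests on 2 fragments and Atf3 is listed at 0. Over the 45 pairs the median r was 0.14, with 29 above 0 and 16 below. These correlations describe 6 libraries that share depth and composition differences, and carry no test.

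**Figure D4:**
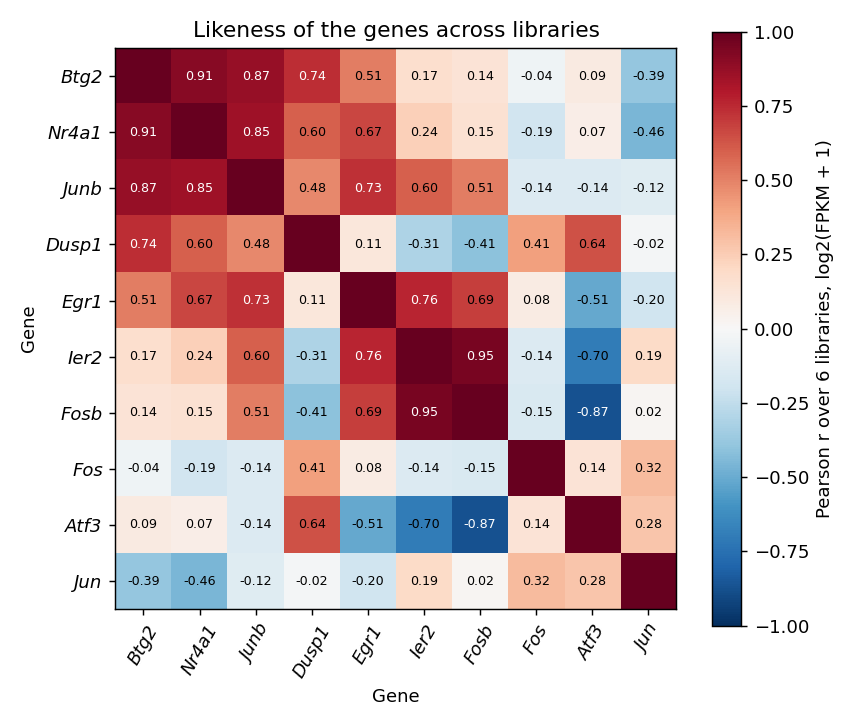
Pearson correlation of log2(FPKM + 1) over the 6 libraries for each pair of genes, printed in each cell and coloured from -1 (blue) to 1 (red). Btg2, Nr4a1 and Junb form a group with values of 0.85 to 0.91, and the rows of Fos, Atf3 and Jun hold mostly weak or negative values.

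Upstream sequences of the other genes of the group led by Btg2 are shown for comparison with Junb, again as RefSeq sequence on GRCm38.p6 with the same capitals, from chr1:134079156-134079405, minus strand (Btg2), and chr15:101266596-101266845, plus strand (Nr4a1).
Btg2: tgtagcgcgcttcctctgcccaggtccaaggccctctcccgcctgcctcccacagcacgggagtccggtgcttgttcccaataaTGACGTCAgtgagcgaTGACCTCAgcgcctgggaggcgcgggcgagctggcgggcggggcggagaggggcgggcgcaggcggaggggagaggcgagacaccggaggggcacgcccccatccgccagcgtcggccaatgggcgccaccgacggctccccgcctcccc
Nr4a1: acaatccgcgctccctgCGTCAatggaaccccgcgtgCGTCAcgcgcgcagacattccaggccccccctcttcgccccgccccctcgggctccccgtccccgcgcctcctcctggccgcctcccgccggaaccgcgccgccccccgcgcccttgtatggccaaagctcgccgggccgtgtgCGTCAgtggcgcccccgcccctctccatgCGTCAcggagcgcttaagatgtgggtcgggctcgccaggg
Btg2 holds a whole CRE 166 bases before its start and a further AP-1 or ATF pattern 150 bases before it, and Nr4a1 holds 4 CRE cores. A promoter entry was matched for 8 of the 10 genes, Ier2 and Egr1 having none in the table. A CRE core was found in 7 of these 8 windows, all but Jun, and in 17.8% of 32851 RefSeq windows of the same length. The whole CRE was found in 2, Btg2 and Dusp1, against 1.5% of all windows. TATAAA was found in 1 of 8 (12.4% of all), TGANNTCA in 3 (11.9%), the shorter AP-1 site TGANTCA in 0 (6.7%) and the CArG box in 0 (1.5%). CRE matches contain the core and the pattern TGANNTCA, so these counts overlap. Sequence further upstream than the windows was not searched, nor was any for Ier2 and Egr1. A count of 0 therefore does not show that the genes lack the site. The 8 windows held 58.4% to 74.4% G and C, and the share over all windows was not matched for base composition or expression.

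Most of the genes have few exons, a property that the choice by name did not use. Of the 10, 9 have up to 4 exons in their longest coding transcript, against 22.4% of 11287 other coding genes that were tested. Jun, Junb and Ier2 have a single exon, and Nr4a1 has 8. The median gene spans 4698.5 bp (GRCm38, GENCODE M21) against 22947 bp. All annotated transcripts together span 56539 bp for Dusp1, 47744 bp for Atf3 and 20527 bp for Nr4a1. The RefSeq promoter window lies inside each of these 3 spans, so the RefSeq transcripts do not cover them in full. For Dusp1, on the minus strand, the window is 26508473 to 26508722 in a gene annotated from 26505590 to 26562128. The AU-rich heptamer TATTTAT, a form of the element that marks short-lived messages, occurred in the 3′ UTR of 6 of the 10, with 3 copies in Dusp1 and 2 in Fos, and in 29.4% of the other genes. By position, Fos lies on chromosome 12 (85473890 to 85477273), Jun on chromosome 4 (95049034 to 95052222), Junb on chromosome 8 (84974484 to 84978718), Nr4a1 on chromosome 15 (101254269 to 101274795) and Btg2 on chromosome 1 (134075170 to 134079120).

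Genes outside the set whose pattern was most like its mean were sought among 2789 genes with a mean of at least 10 FPKM. The 5 closest were 9530068E07Rik (r = 0.997 over 6 libraries), the pyruvate dehydrogenase subunit gene Pdha1 (0.978), the 14-3-3 gene Ywhah (0.974), the ribosomal RNA processing gene Rrp1 (0.973) and the tight junction gene Cldn4 (0.972). All 5 were highest in KO+DNMT3A replicate 1, for instance Cldn4 at 155 FPKM there and 28.9 to 68.7 FPKM elsewhere. The mean of the set is itself highest in that library, so this follows from how the 5 were picked. Their r values are the highest of 2789 and carry no test.

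Other genes of the early response were read from lists of genes chosen by name with earlier results of these data known. None passed in any comparison (smallest limma adjusted p = 0.997). Of all 13233 genes tested, 6968 had a higher mean in KO than in WT. That count was 9022 for KO+DNMT3A against KO and 8581 for KO+DNMT3A against WT. Among partners of AP-1 and other early transcription factors, 14 of 21 were tested; 11 had a higher mean in KO than in WT, 8 in KO+DNMT3A than in KO and 10 in KO+DNMT3A than in WT, with medians of 0.36, 0.13 and 0.29. The counts without both insulin-poor libraries were 7, 7 and 10, with medians of 0.15, 0.02 and 0.58, and with median scaling 11, 6 and 7, with medians of 0.36, -0.07 and 0.09. Klf10, a TGF-beta-inducible early gene, was 4.03 and 7.42 for the WT libraries, 21.2 and 7.15 for the KO libraries, and 36.4 and 12.1 FPKM for the KO+DNMT3A libraries (log2 fold change 1.76 for KO+DNMT3A against WT, SE 0.76). Cebpd, which encodes a C/EBP factor, was 6.92 and 9.57 for the WT libraries, 17.8 and 7.60 for the KO libraries, and 18.5 and 37.9 FPKM for the KO+DNMT3A libraries (1.59, SE 0.65). Egr4 and Nr4a3, relatives of Egr1 and Nr4a1, were listed at 0 in all 6 libraries.

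Among 21 other early response genes tested, 6 had a higher mean in KO than in WT, 13 in KO+DNMT3A than in KO and 8 in KO+DNMT3A than in WT, with medians of -0.10, 0.23 and -0.07. These counts were, without both insulin-poor libraries, 12, 13 and 11, with medians of 0.20, 0.09 and 0.03, and with median scaling 6, 11 and 8, with medians of -0.10, 0.03 and -0.27. Socs3, a feedback inhibitor of cytokine signalling, was 6.21 and 8.12 for the WT libraries, 16.2 and 4.68 for the KO libraries, and 21.1 and 20.1 FPKM for the KO+DNMT3A libraries. Of the 12 MAP kinase phosphatases and feedback inhibitors, relatives of Dusp1 in role, 7, 7 and 9 had a higher mean in the 3 comparisons in the same order, with medians of 0.28, 0.04 and 0.33. Leaving out both insulin-poor libraries, 10, 6 and 9 of the 10 that could be tested were higher, with medians of 0.32, 0.02 and 0.25, and with median scaling 7, 4 and 7 of 12, with medians of 0.28, -0.17 and 0.13. Of the 23 kinases and factors that act upstream, 10, 13 and 13 had a higher mean, with medians of -0.03, 0.08 and 0.03. Omitting both insulin-poor libraries, 9, 12 and 12 of 20 were higher, with medians of -0.05, 0.15 and 0.05, and with median scaling 10, 8 and 7 of 23, with medians of -0.03, -0.12 and -0.17. Over all genes tested the medians were 0.03, 0.19 and 0.23, and 6968, 9022 and 8581 of the 13233 genes had a higher mean.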

How the data were processed

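The values are FPKM as deposited by the authors, per the file headers, 1 column per library. Per the submitters' processing notes, the genome was mm10 and the tools included edgeR, StringTie 1.3.0 and HISAT2 2.0.4, with no roles stated. The members and all gene lists were chosen with earlier results of these data known. Symbols, transcripts and positions come from GENCODE M21 (GRCm38, the mm10 assembly) and promoters from RefSeq (GRCm38.p6); 478 of 34745 genes lacked a symbol and 15901 were listed at 0 throughout. Depth was inferred from genes with a single transcript: 84.5% to 91.8% of their values up to 20 fragments were whole within 0.01. Fragment intervals are exact Poisson intervals (95%).

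The filter asked for 1 FPKM or more in 2 or more libraries (13233 genes, 9 of the 10 members), log2(FPKM + 1) was taken, and all 6 libraries entered a limma 3.58.1 fit (R 4.3.3) with a trended, robust empirical Bayes step. P-values are two-sided and adjusted over all genes by Benjamini-Hochberg, with a threshold of 0.05. A fold change on this scale understates that of low genes. Named genes were the members, Rptor, Dnmt3a, Ins1, up to 4 genes per list with the smallest p (mean of at least 2 FPKM), of which some, picked after their values were seen, are printed, and the 5 genes most correlated with the members' mean. Ins2, Sst, Ppy, Egr4, Nr4a3, Prdx2, Ccl2 and the library orders were named after their values were seen. On simulated data for KO against WT over 13233 genes, the fit recovered 0 of 50 genes changed 16-fold at the spread of these libraries, and 50 of 50 at 0.1 of that spread. Alternatives were another pseudocount, 2 other filters, 3 scalings, a fit without trend, a fit of the groups compared, a replicate block and libraries left out; a crossed block was added after the data were seen. Figures used matplotlib 3.10.9, and tables pandas 2.3.3 and scipy 1.17.1 (Python 3.11.15).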

Additional observations from a re-analysis of the deposited data

How the results depend on the processing

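No gene and no member was called in any of the 17 alternative fits of the 3 comparisons, Fosb standing outside all of them except the fit with no filter. Fos kept its direction in both comparisons with KO+DNMT3A under all 17, a direction that only the 3 scalings could have changed. The median over the members ranged over single left-out libraries from -0.34 to 0.35 for KO against WT, from -0.32 to 0.88 for KO+DNMT3A against KO and from 0.17 to 1.11 for KO+DNMT3A against WT; the cause was not tested. Signs reversed in 21, 25 and 12 of 153 single-gene values of the 3 comparisons. With 1 library left out, KO against WT ranged from -0.52 to 0.73 for Fos, -0.78 to 0.35 for Jun, -1.19 to 0.70 for Junb, -0.34 to 0.76 for Egr1, -0.20 to 2.69 for Atf3, -0.99 to 0.37 for Ier2, -0.77 to 1.82 for Nr4a1, -0.22 to 0.48 for Dusp1 and -1.60 to 1.06 for Btg2. KO+DNMT3A against KO ranged from -0.72 to 0.62 for Jun, -0.58 to 1.31 for Junb, -0.40 to 0.70 for Egr1, -1.92 to 1.08 for Atf3, -0.45 to 0.46 for Ier2, -1.12 to 1.47 for Nr4a1 and -0.32 to 2.34 for Btg2. KO+DNMT3A against WT ranged from -0.94 to 0.41 for Jun, -0.38 to 0.63 for Junb, -0.06 to 0.77 for Egr1, -0.68 to 2.32 for Atf3, -0.98 to 0.37 for Ier2, 0.29 to 1.11 for Nr4a1 and 0.17 to 1.31 for Btg2. Without both insulin-poor libraries Egr1 was 1.17 for KO against WT, and the reversed values there were -0.12 for Fos, 0.83 for Junb, -1.10 for Atf3, 0.83 for Ier2, -0.07 for Dusp1 and 0.53 for Btg2. For KO+DNMT3A against KO they were 0.52 for Jun, -0.58 for Junb, -0.40 for Egr1, 0.47 for Atf3, -0.45 for Ier2, -1.12 for Nr4a1 and -0.32 for Btg2, and for KO+DNMT3A against WT 0.21 for Jun, -0.63 for Atf3 and 0.37 for Ier2. Scaling reversed KO+DNMT3A against KO for Egr1 (-0.06 by quantiles, -0.05 by medians), Ier2 (-0.21 and -0.20), Nr4a1 (-0.03 by medians) and Jun (0.02 when rescaled without insulin and mitochondrial genes), and KO+DNMT3A against WT for Junb (-0.08 by medians). The pairing of replicate numbers was checked: deviations of same-numbered libraries correlated at -0.27 (WT and KO), 0.10 (WT and KO+DNMT3A) and 0.32 (KO and KO+DNMT3A), so the title numbers were not taken to pair the libraries. The sample descriptions carry other numbers, of which only 3 is shared, by WT replicate 1, KO replicate 2 and KO+DNMT3A replicate 2; what it marks is not given. A replicate block called 0 genes and 0 members in each comparison, with Fos at 1.44 and 1.55 (limma unadjusted p = 0.0685 and 0.0545). A crossed block with the WT numbers exchanged, which puts those 3 libraries together, was added after seeing the data. It also called 0, with Fos at 1.44 and 1.55 (limma unadjusted p = 0.0354 and 0.0268), and neither passed after adjustment. Depth limits what can be seen: in WT replicate 1 a gene of a few FPKM rests on single fragments.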

Other observations

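Stress and inflammatory genes often induced alongside immediate early genes were read from further lists, chosen by name with earlier results of these data known. None passed (smallest limma adjusted p = 0.997). The counts of higher means below stand beside those over all 13233 genes tested. Those were 6968 for KO against WT, 9022 for KO+DNMT3A against KO and 8581 for KO+DNMT3A against WT. Of 16 NF-kB and chemokine genes, 14 had a higher mean in KO+DNMT3A than in KO; their median on the log2 scale was 0.67, beside 0.19 over all genes, and 11 of the 16 did not overlap between the groups in that direction, beside 17.2% of all genes. Against WT, 9 of 16 were higher, with a median of 0.29, and for KO against WT 6 of 16, with a median of -0.25. Without overlap, 7 were higher and 1 lower in KO+DNMT3A than in WT, beside 19.2% and 7.87% of all genes. In KO against WT, 0 were higher and 5 lower without overlap, beside 9.36% and 10.5%. Without both insulin-poor libraries 13 of 15 were higher in KO+DNMT3A than in the remaining KO library, with a median of 0.60. Nfkb2, an NF-kB subunit gene, was 14.2 and 12.2 for the KO+DNMT3A libraries, 6.63 and 1.89 for the KO libraries, and 7.24 and 7.59 FPKM for the WT libraries. Nfkbiz, an inducible nuclear regulator of NF-kB, was 15.0 and 13.6 for the KO+DNMT3A libraries, 8.22 and 4.65 for the KO libraries, and 3.42 and 5.73 FPKM for the WT libraries. Bcl3, a related regulator, was 15.3 and 28.6 for the KO+DNMT3A libraries, 11.8 and 6.35 for the KO libraries, and 3.37 and 9.61 FPKM for the WT libraries. All 3, which were named for their small p, were higher in both KO+DNMT3A libraries than in the other 4, as were Fos and 7.6% of all genes tested. The chemokine gene Ccl2 of the same list went the other way. It was lower in KO+DNMT3A without overlap, with log2 fold changes of -1.36 against KO and -1.53 against WT. Of all genes 5.43% and 7.87% were lower without overlap in these comparisons. With median scaling the list's median was 0.47 for KO+DNMT3A against KO (13 of 16 higher) and 0.09 for KO+DNMT3A against WT (9 of 16).

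Of 12 stress-induced heat shock genes, 0 had a higher mean in KO+DNMT3A than in WT, with a median of -0.37 beside 0.23 over all genes; without both insulin-poor libraries 2 of 11 did, with a median of -0.21. Hspa1b, an inducible HSP70 gene, was 14.6 and 4.76 for the WT libraries, 0.50 and 21.5 for the KO libraries, and 0.37 and 0.32 FPKM for the KO+DNMT3A libraries. Hmox1, heme oxygenase 1, was 25.1 and 20.8 for the WT libraries, 8.36 and 8.33 for the KO libraries, and 12.98 and 5.17 FPKM for the KO+DNMT3A libraries. The mean was higher in KO than in WT for 4 of the 12 heat shock genes, and higher in KO+DNMT3A than in KO for 6, with medians of -0.25 and 0; with median scaling the second count was 2, with a median of -0.20. In the axis of ATF4 and CHOP, to which Atf3 belongs, 1 of 11 genes had a higher mean in KO than in WT, 6 in KO+DNMT3A than in KO and 4 in KO+DNMT3A than in WT, with medians of -0.28, 0.04 and -0.10. Without both insulin-poor libraries these counts were 4, 4 and 1, with medians of -0.50, -0.28 and -0.41, and with median scaling 1, 5 and 1, with medians of -0.28, -0.16 and -0.30. Ddit3, which encodes CHOP, was 72.8 and 91.1 for the WT libraries, 18.3 and 114 for the KO libraries, and 17.9 and 31.5 FPKM for the KO+DNMT3A libraries. Of 11 p53 targets tested, the list that Btg2 would join, 6, 2 and 5 had a higher mean in the same order, with medians of 0.11, -0.18 and -0.20. Leaving out both insulin-poor libraries gave 4, 4 and 3, with medians of -0.38, -0.07 and -0.32, and with median scaling 6, 1 and 3, with medians of 0.11, -0.38 and -0.40.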
